A study of Mus musculus with 1457 samples.

Results

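The nuclear genes of the respiratory chain and of the mitochondrial ATP synthase were examined in sorted single cells of the mouse aorta-gonad-mesonephros (AGM) region, and their share of the reads was set beside that of the genes carried by mitochondrial DNA. Members were chosen by symbol alone: the Ndufa, Ndufb, Ndufc, Ndufs and Ndufv genes of complex I, Sdha to Sdhd of complex II, the Uqcr genes of complex III, Cox4 to Cox8 of complex IV and the Atp5 genes of complex V, without rows named as pseudogenes. This rule took 84 of the 36131 genes analysed, of which 35 belong to complex I, 4 to complex II, 8 to complex III, 11 to complex IV and 15 to complex V. Ndufa4, named for complex I, is counted with complex IV, where its protein is found. A further 8 are second isoforms known from particular tissues, and 3 (Cox7a2l, Atp5s and Atp5sl) are counted apart as assembly or accessory genes. The rule used no measured value.

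The series holds 1457 single cells of ICR mouse embryos, each sorted by flow cytometry into a well of a 384-well plate and amplified by a modified Smart-seq2 protocol, a method that reads full-length cDNA of polyadenylated RNA. The sorts follow how blood arises from the wall of the dorsal aorta: hemogenic endothelium (HE), a blood-forming endothelium, changes into cells that bud off as intra-aortic hematopoietic clusters (IAHC). No label names an embryo, so cells were summed and each of the 19 groups counted as 1 sample; p-values below measure the spread between such sums, not between embryos. In a sum, fewer cells with a transcript and less transcript per cell cannot be told apart.

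All sorted cells were TER119-negative and came from E10.5 or E11.5 embryos. In embryos with 1 reporter allele each of Gfi1 and Gfi1b (Gfi1:Tomato/WT Gfi1b:GFP/WT, het), endothelial cells (Endo) expressed CDH5 but none of CD41, CD45, KIT and either reporter. HE cells passed the same gate with the GFI1 reporter on. Transition cells (EHT) carried CD41 and KIT as well, and IAHC cells added the GFI1b reporter. At E10.5 these groups held 74 Endo, 95 HE, 41 EHT and 42 IAHC cells, and at E11.5 they held 16 Endo, 40 HE and 22 IAHC cells. Another 41 Endo, 43 HE and 42 EHT cells are titled E11.5 while their stage field says E10.5, and they are called titled E11.5 here. The knockout group has both alleles replaced (Gfi1:Tomato/Tomato Gfi1b:GFP/GFP) and holds 42 E10.5 HE cells. In the Runx1b reporter line, HE was CDH5+ and RUNX1b+ and mesenchymal cells (Mes) CDH5- and RUNX1b+. HE cells titled KO, although their genotype field is heterozygous, made up 19% of the 1457 cells, het HE (Runx1b:RFP/WT) 18% and het Mes 7.34%, and the line also gave 53 het Endo and 91 KO Mes cells (Runx1b:RFP/RFP). The ACE sorts, from Gfi1:Tomato/WT embryos at E10.5, split CDH5+ cells by angiotensin-converting enzyme into 39 ACE+ GFI1+ HE cells, ACE+ GFI1- cells (7.96% of the 1457) and 14 ACE- GFI1- Endo cells. The reporter alleles are also carried by every reference group, so no group of this series has an unmodified genotype.

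Complexes I, III and IV of the mitochondrial inner membrane pass electrons from NADH to oxygen and pump protons, complex II feeds in electrons from succinate, and complex V uses the proton gradient to make ATP. Most of their subunits are encoded in the nucleus, while a core set is encoded by mitochondrial DNA, so each complex other than II needs transcripts from both genomes. Blood stem cells and their precursors are often described by how much they rely on oxidative phosphorylation and glycolysis, and the genes measured here are the nuclear share of that machinery.

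Promoter sequences were looked up because transcription factors such as NRF1 are known to control many of these genes together. In the RefSeq promoter table (GRCm38.p6) the same name rule took 70 symbols, searched from 250 bases before to 50 bases after the start and on both strands. Atp5md, Atp5pb, Ndufb1 and Ndufb4b are among these 70 but not, under those symbols, among the 84. In the motif percentages below, members are these 70 symbols. The NRF1 motif GCGCATGCGC was present in 7.14% of the members with a promoter (5 of 70), against 1.07% of all 27025 genes, and its inner part GCATGCGC, which lies within it and was added after these sequences had been read, in 14.3% of members against 3.05% of all genes. The ETS motif CCGGAAG stood in 24.3% of members against 9.93% of genes, and the YY1 motif AAGATGGC in 14.3% against 3.19%. The SP1 motif GGGCGG was about as frequent in both, at 40% of members and 38.2% of genes, and TATAAA was in 11.4% against 15.7%. A match is a run of letters and not a shown binding site. The 3 promoters printed belong to Ndufa8, the member called in the comparison of HE with Endo described further on, and to Atp5b and Atp5g3 of the ATP synthase, each called there in 5 of 19 settings. Each line gives the 250 bases before the RefSeq start, 5′ to 3′ along the gene. Capitals mark GGGCGG or its reverse complement CCGCCC and, at the end of Ndufa8, GCATGCGC. The Ndufa8 window lies at chr2:36049339-36049588 on the minus strand, that of Atp5b at chr10:128083057-128083306 on the plus strand, and that of Atp5g3 at chr2:73911327-73911576 on the minus strand.
Ndufa8: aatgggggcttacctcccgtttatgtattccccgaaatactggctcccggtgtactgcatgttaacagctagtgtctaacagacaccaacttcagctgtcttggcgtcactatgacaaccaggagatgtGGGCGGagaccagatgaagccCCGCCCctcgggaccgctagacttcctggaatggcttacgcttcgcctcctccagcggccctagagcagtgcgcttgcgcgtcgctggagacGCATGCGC
Atp5b: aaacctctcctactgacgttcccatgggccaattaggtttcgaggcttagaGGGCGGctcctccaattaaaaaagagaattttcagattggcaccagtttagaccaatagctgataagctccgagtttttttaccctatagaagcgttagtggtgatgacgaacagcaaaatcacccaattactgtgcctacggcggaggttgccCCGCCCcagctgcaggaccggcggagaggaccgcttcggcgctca
Atp5g3: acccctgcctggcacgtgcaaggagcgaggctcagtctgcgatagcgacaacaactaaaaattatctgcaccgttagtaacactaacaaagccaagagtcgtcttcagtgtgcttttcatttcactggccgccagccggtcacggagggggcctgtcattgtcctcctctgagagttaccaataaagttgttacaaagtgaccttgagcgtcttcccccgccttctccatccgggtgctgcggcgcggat
The Ndufa8 sequence ends in the short NRF1 form, right before the RefSeq start, and has 2 SP1 matches further up. That RefSeq start lies inside the annotated gene span used further on, which ends at 36049406, and the window also covers the start of Morn5 at 36049458. The Atp5b sequence has 2 SP1 matches, and Atp5g3 has none of the 6 motifs searched.

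Sums held 14577594 to 199887490 reads, and single cells 12 to 5652968 reads (median 598000), with 42 cells under 50000. The E11.5 IAHC sum stands apart: 14 of its 22 cells had at least 1% of their reads in globin genes (called erythroid-like), its cells had a median of 2.5 of 20 pan-endothelial genes, and its scaling factor was 0.523. Over all groups 83 cells were erythroid-like. Titles number the cells of the larger table from 1 to 1288, and the cells numbered up to 592 differ from those numbered from 593 on: reads of mt-Co2, mt-Co3 and mt-Atp6 exceeded 2 per 1000 mt-Co1 reads in 577 of 578 cells of the first range and in 1 of 683 cells of the second, among cells with 50000 reads or more. The labels do not say what the numbers stand for. In 6 groups with cells of both ranges, 59 of 8344 genes (0.707%) differed over 2-fold one way in all 6, among them 1 of 75 members, Atp5l, higher in the first range with a median log2 ratio of 3.33, so values of Atp5l follow the cell numbers. For comparisons of groups with mixed ranges, member counts within a range are given as well, with the ratios of some of the named genes. The share of all genes past the same fold within a range is not given here, so these counts cannot be set against a background. The mt- share followed the range too: in Runx1b het HE it was 5.31% in the first range and 2.20% in the second.

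Most members were expressed in every sort. Of the 84 genes, 71 had at least 20 reads per 1000000 (CPM) in all 19 groups, 6 stayed under that level in all of them, and Cox6a2 and Cox8c, the muscle and testis forms, had no read anywhere. Levels of different genes were compared per kilobase of exon and per 1000000 reads, as the mean over the 19 groups. On that scale the median member stood at 130.2, with medians of 123.2 in complex I, 113.1 in complex II, 227.1 in complex III, 377.8 in complex IV and 156.2 in complex V. The small subunits of cytochrome c oxidase led, with Cox6b1 at 887 and Cox8a at 712, followed by Ndufa2 of complex I at 592, Cox6a1 at 574 and Cox4i1 at 477. Atp5b, the catalytic beta subunit of the ATP synthase, stood at 391. The lowest genes counted in complexes I to V were Atp5l at 3.02 and Ndufb2 at 4.22. Their levels were divided by exon lengths joined over all annotated transcripts, 6443 and 5628 bases, and Atp5l follows the cell numbers. The second isoforms had a median of 1.10. For comparison, mt-Cytb, the mitochondrially encoded subunit of complex III, stood at 6488, mt-Nd1 of complex I at 4826 and mt-Co1 of complex IV at 4527.

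The members took between 1.29% and 2.96% of a group's reads (median 2.02%), and the 37 mt- genes between 1.81% and 4.67% (median 3.36%). Along the E10.5 Gfi1/Gfi1b sorts, members made up 2.49% of reads in Endo, 2.02% in HE, 2.63% in EHT and 2.96% in IAHC (exact 95% counting interval 2.95% to 2.97%), the highest of all groups. The mt- share of the same sorts was 3.25%, 2.43%, 3.16% and 3.36%, so that in these sums both were lowest in HE and highest in IAHC. All EHT and IAHC cells lie in the first cell number range, while Endo and HE hold both ranges. Within the first range the median mt- share over cells was 3.55% in Endo, 2.84% in HE, 3.12% in EHT and 3.41% in IAHC. There Endo and not IAHC was highest. The median member share over the same cells was 2.36%, 2.35%, 2.59% and 2.99%. In the E11.5 sorts the order was another one. Members took 2.28% in Endo, 1.78% in HE and 1.29% in IAHC, while mt- genes took 4.54%, 4.67% and 2.15%. In the titled E11.5 sorts members took 1.99% in Endo, 1.85% in HE and 2.23% in EHT, and mt- genes took 4.03%, 3.50% and 3.77%. Across the 19 groups the rank correlation of both shares was 0.06 (Spearman, a description without a p, since the labels do not say which groups share embryos). Over the cells of 1 group the same correlation lay between -0.57 and 0.73 (median -0.25), above 0 in 4 of 19 groups. Reads in members per read in mt- genes ranged from 0.38 to 1.19 between groups.

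**Figure D1:**
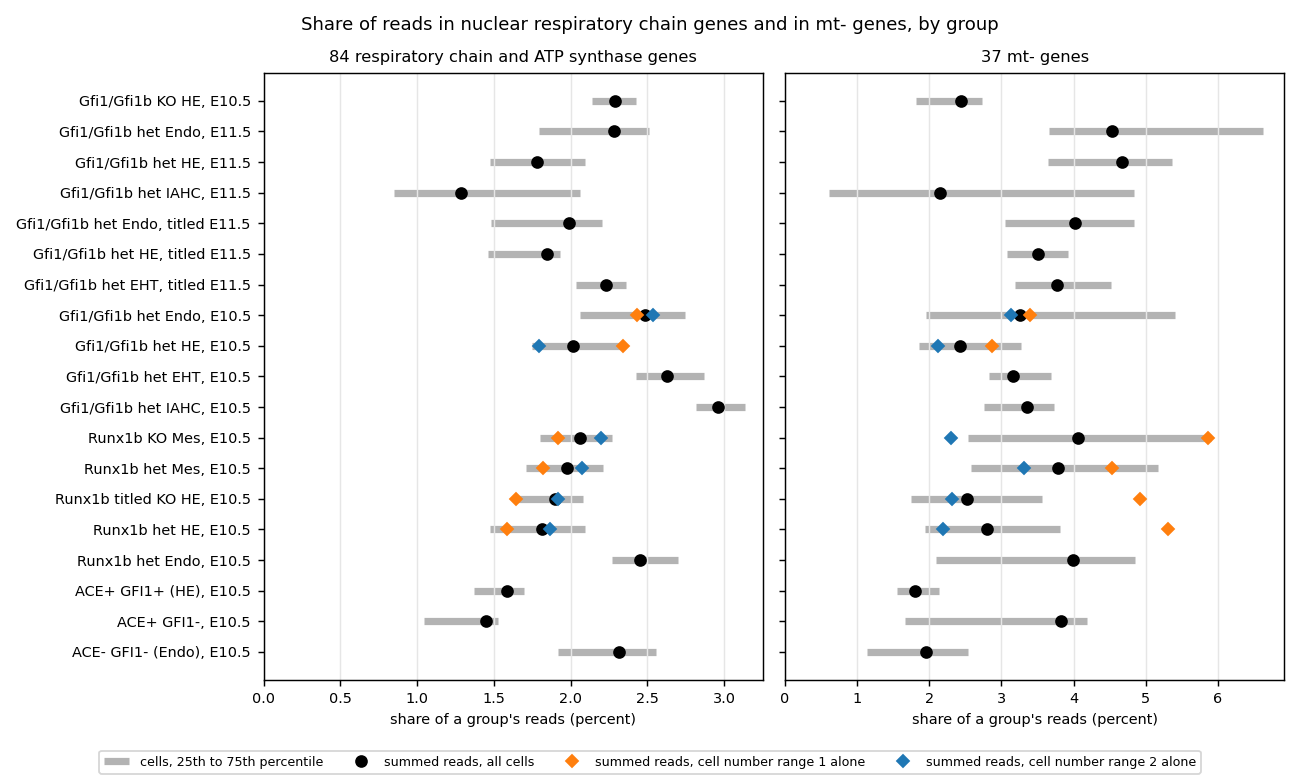
Share of a group's reads (horizontal axes, percent) in the 84 nuclear members (left) and in the 37 mt- genes (right), with 1 line for each of the 19 groups: black points are summed reads of all cells, grey bars span the 25th to the 75th percentile of single cells, and orange and blue diamonds are the first and second cell number range alone. In members the E10.5 IAHC sum is highest at 2.96% and the E11.5 IAHC sum lowest at 1.29%, and in mt- genes the first range of Runx1b het HE lies at 5.31%, far right of its second range at 2.20%.

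HE was first set against Endo in 4 sets: the Gfi1/Gfi1b line at E10.5 and at E11.5, the Runx1b line, and the ACE sorts. In the Gfi1/Gfi1b line Endo cells passed the same gate without the reporter, while HE of the ACE sorts differed from its Endo by ACE as well. Members took less of the reads in HE than in Endo in all 4 sets, with 2.02% in HE against 2.49% in Endo of the E10.5 Gfi1/Gfi1b line, 1.78% against 2.28% at E11.5, 1.81% against 2.45% in the Runx1b line and 1.59% against 2.32% in the ACE sorts. The log2 ratios were -0.30, -0.36, -0.44 and -0.54, with a mean of -0.41 ± 0.10 (SD, 4 pairs), or 0.753-fold. An exact two-sided sign-flip permutation test gave p = 0.13, the smallest that 4 pairs allow, so this design cannot pass 0.05. Each complex followed the same direction in the 4 sets, with mean log2 ratios of -0.28 for complex I, -0.50 for complex II, -0.38 for complex III, -0.54 for complex IV and -0.49 for complex V. The mt- share did so in 3 of 4 sets, with a mean of -0.25 ± 0.26 (exact sign-flip permutation p = 0.25). Its pair values were -0.42, 0.04, -0.51 and -0.11. Without cells under 50000 reads, the mt- ratio of the ACE pair was 0.14 and the mean -0.19.

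The difference was not of one size everywhere. Within the first cell number range of the E10.5 Gfi1/Gfi1b line, members took 2.34% in HE against 2.43% in Endo (log2 ratio -0.05), and within the second range 1.79% against 2.54% (-0.50). That second range holds 16 erythroid-like HE cells. Without them its HE share was 2.02%, and the log2 ratio -0.33. Over all 4 sets without erythroid-like cells the mean was -0.36. In the ACE sorts the ACE+ GFI1- cells already stood at 1.45%, below both ACE+ GFI1+ HE and ACE- GFI1- Endo, so the ACE pair differs by ACE as well as by the GFI1 reporter. In the Runx1b line all Endo cells lie in the second range, where members took 1.87% in HE against 2.45% in Endo. HE cells of that range had a median of 4 of the 20 pan-endothelial genes, against 20 in Endo. Mesenchymal markers summed to 4999 CPM in the whole HE sum against 11.9 CPM in Endo. This pair thus differs in cell type as well, and the part of that in its share was not tested. In the fit over sets, cells with at least 10 pan-endothelial genes gave a member median of -0.40, against -0.32 with all cells. A proliferation list of 10 genes lay lower in HE in the fit over sets, 10 of 10 with a median log2 ratio of -0.87, but not in each set: its medians were 0.003, -1.63, -0.98 and -0.71 in the set order above. Its part in the result was not tested.

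Across genes, edgeR's quasi-likelihood test with the set as a block and Benjamini-Hochberg adjustment over 14553 genes called 1 of 79 members tested, lower in HE, where 0.515% of all genes were called lower and 1.4% in either direction. The other 5 members were too low for the test. The called gene was Ndufa8, an accessory subunit of complex I of the intermembrane space side, which lies at chr2:36036326-36049406 on the minus strand. It had 176.8, 158.8, 141.4 and 129.3 CPM in HE of the E10.5 Gfi1/Gfi1b, E11.5, Runx1b and ACE sets, against 364.7, 318.8, 370.0 and 346.4 CPM in Endo. The HE sums all lay below the lowest Endo sum. Ndufa8 fell by 1.14 on the log2 scale (SE 0.15, 0.455-fold), with an adjusted p of 0.0382 by edgeR's quasi-likelihood test. Within the cell number ranges of the E10.5 Gfi1/Gfi1b line its log2 ratio was -0.35 in the first and -1.55 in the second. The titled E11.5 sorts, kept out of this test, had 166.7 CPM in HE against 191.3 in Endo, and with them added as a set the edgeR adjusted p was 0.0644. With 1 set left out at a time, the edgeR adjusted p lay between 0.0697 and 0.173, with log2 ratios of -1.27 to -1.03, so the call needs all 4 sets. No exon base of Ndufa8 overlaps another gene, and none of its 50-base words occurs in another annotated gene.

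**Figure D2:**
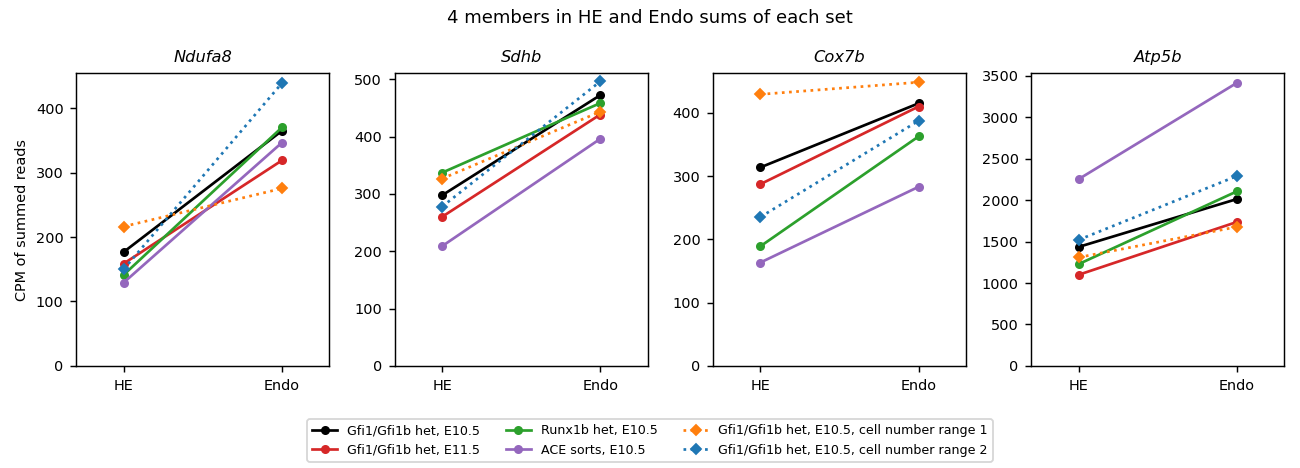
CPM of Ndufa8, Sdhb, Cox7b and Atp5b in the HE sum (left) and the Endo sum (right) of each set, joined by a line per set, with dotted lines for the cell number ranges of the E10.5 Gfi1/Gfi1b line. Ndufa8 lies between 129.3 and 176.8 CPM in HE and between 318.8 and 370.0 CPM in Endo.

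Below the threshold the members leaned one way. Of the 79 tested, 69 had a log2 ratio below 0, with a median of -0.32 where the median of all genes was 0.09, and 30 (38%) had an unadjusted p under 0.05 where 19.4% of all genes did. Without the ACE set the median was -0.18, with 61 of 79 below 0. All 4 members of complex II, all 8 of complex III and all 11 of complex IV lay below 0, with medians of -0.47, -0.31 and -0.44. In complex V, 14 of 15 did so, with a median of -0.41, and in complex I 31 of 35, with a median of -0.21.

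With 1 sum against 1 and no test, members over 1.5-fold higher and lower in HE than in Endo numbered 1 and 4 of 77 in the E10.5 Gfi1/Gfi1b set (12.8% and 22.8% of genes), and 1 and 16 of 76 at E11.5 (33.2% and 26.4%). Within the first range of the E10.5 set the counts were 1 and 2 of 75, and within the second 1 and 30 of 76, or 1 and 11 without erythroid-like cells. In the Runx1b set they numbered 3 and 18 of 78 (20.6% and 22.6% of genes), with 3 and 20 within the second range, and in the ACE set 0 and 39 of 76 (28.7% and 21.6%). The titled E11.5 set had 0 and 1 of 76 (20% and 21% of genes). The median log2 ratio of members was -0.28, -0.34, -0.40, -0.60 and -0.12 in this order, against -0.20, 0.07, -0.13, 0.05 and -0.01 for all genes. In the tested fit, 0.886% of genes were called higher in HE and 0 members were.

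Atp5g3, a gene for the membrane ring of the ATP synthase, came nearest to the threshold. It had 280.6, 224.9, 244.04 and 196.8 CPM in HE against 462.1, 361.8, 442.1 and 317.1 CPM in Endo, in the set order above, without overlap. Its log2 ratio was -0.66 ± 0.12 (SE), with an adjusted p of 0.0688 by edgeR's quasi-likelihood test, and it was called in 5 of 19 settings. Within the cell number ranges of the E10.5 line the log2 ratio of Atp5g3 was -0.15 in the first and -1.12 in the second. Sdhb, the iron-sulfur subunit of succinate dehydrogenase, had 297.5, 260.01, 337.0 and 208.8 CPM in HE against 472.2, 438.4, 458.3 and 396.0 CPM in Endo. These groups did not overlap either, with a log2 ratio of -0.62 ± 0.16 and an edgeR adjusted p of 0.124, and within the E10.5 ranges the ratio was -0.44 and -0.84. Its partner Sdhc, a membrane anchor of the same complex, had a log2 ratio of -0.73 ± 0.24 (edgeR adjusted p = 0.189). Cox5a, a subunit of cytochrome c oxidase, had 83.3, 75.1, 57.8 and 58.7 CPM in HE against 111.98, 123.6, 102.5 and 111.9 CPM in Endo (log2 ratio -0.65 ± 0.18, edgeR adjusted p = 0.137). The HE sums of Cox5a all lay below its Endo sums. Ndufc1 of complex I stood at -0.62 ± 0.16 (edgeR adjusted p = 0.131), and Atp5s at -0.80 ± 0.88 (0.674), a low gene with a wide error.

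Atp5b had 1437, 1101, 1229 and 2255 CPM in HE against 2014, 1737, 2107 and 3416 CPM in Endo. It was lower in HE in each set, but the ACE sums stood above all others, so the groups overlapped across sets. It was called in 5 of 19 settings. Cox4i1, the common form of subunit 4 of complex IV, had 684.3, 609.6, 635.9 and 446.8 CPM in HE against 925.8, 892.6, 871.0 and 680.4 in Endo, lower in each set with 1 overlap, the Endo sum of the ACE sorts against HE of the E10.5 line. Uqcrc1, a core subunit of complex III, had 525.2, 418.9, 612.3 and 726.2 CPM in HE against 733.1, 455.9, 726.4 and 1084 CPM in Endo, lower in each set with overlap across sets. Ndufv1, which binds NADH in complex I, showed no such order, with 171.4, 148.7, 165.8 and 248.7 CPM in HE against 156.5, 133.9, 163.2 and 229.9 CPM in Endo. It was slightly higher in HE in each set.

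Few members lay the other way. Cox7a2l, which is known to join complexes III and IV into supercomplexes, had a log2 ratio of 0.37 ± 0.13 (edgeR adjusted p = 0.196), Ndufa11 of 0.31, Atp5sl of 0.25, Ndufa13 of 0.21 and Ndufa6 of 0.19. Cox7a2l had 244.6, 342.5, 201.8 and 145.6 CPM in HE against 213.2, 234.9, 181.8 and 120.1 in Endo, higher in HE in each set. Exons of Tssk6 overlap 30% of the exon bases of Ndufa13, and reads of the pair cannot be told apart, since the strand setting of the counting is not given in the sources used here. Larger ratios belonged to 3 second isoforms with few reads in Endo, Cox4i2 at 5.95 ± 1.91 (edgeR adjusted p = 0.178), Cox7a1 at 5.78 ± 1.79 (0.168) and Cox6b2 at 2.31 ± 0.92 (0.251), and DESeq2 called all 3 higher in HE. Cox4i2 had no read in the Endo sums of 2 sets and Cox7a1 none in 3, so these fitted ratios depend on how a count of 0 is handled. Their levels are described with the isoforms.

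**Figure D3:**
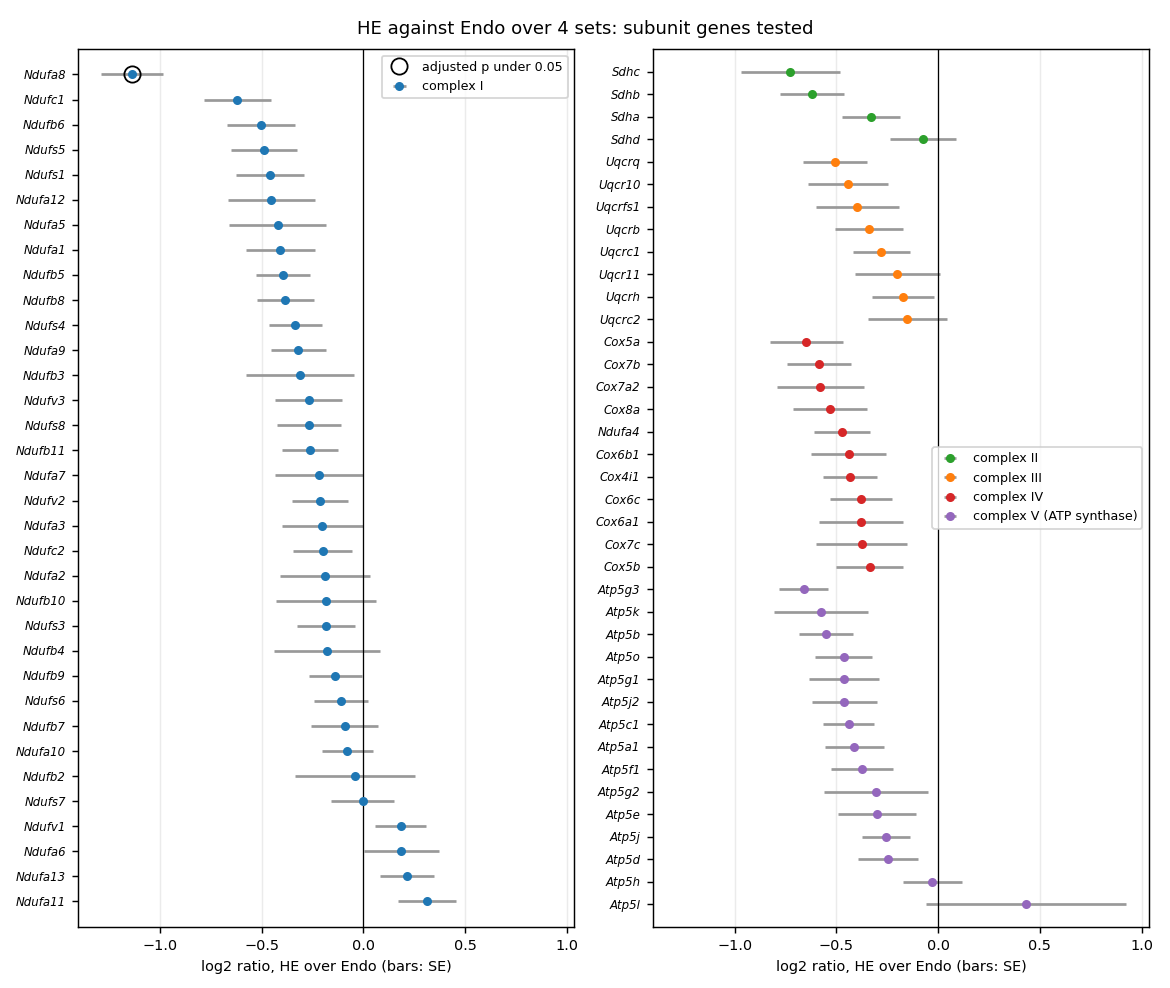
Log2 ratio of HE over Endo (horizontal axis, bars are standard errors) for 72 tested members that are core or accessory subunits of complexes I (left) and II to V (right), ordered by ratio within a complex, from edgeR's fit on 8 sums; second isoforms and assembly genes are not drawn. Of these points 67 lie below 0, and Ndufa8 at -1.14, ringed, is the one past the threshold.

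EHT and IAHC cells were then set against HE within the Gfi1/Gfi1b line, on 10 sums of 3 sets, with 17041 genes and 80 members tested. For EHT against HE, edgeR's quasi-likelihood test called 0 members and 0% of genes, while 6 members (7.5%) and 8.56% of genes had an unadjusted p under 0.05. DESeq2 called 2 members of 80, Cox7b and Cox8a, both higher, beside 395 genes higher and 728 lower of 17041. A fit on 3 sets can miss differences of the size seen here, so a count of 0 does not show that members were alike. The median member had a log2 ratio of 0.17 against -0.05 for all genes, and 60 of 80 lay above 0. All 11 genes of complex IV and 13 of 15 of complex V lay above 0 (medians 0.37 and 0.29), against 25 of 35 of complex I (0.10), 5 of 8 of complex III (0.11) and 1 of 4 of complex II (-0.13). Cox8a, a small subunit of complex IV, had 688.2 and 645.7 CPM in EHT of the E10.5 and titled E11.5 sets, against 425.3, 313.6 and 298.6 CPM in HE of the E10.5, titled E11.5 and E11.5 sets. Both EHT sums stood above all HE sums, with a log2 ratio of 0.68 ± 0.18 and an edgeR adjusted p of 0.356. Cox7b, another small subunit, had 541.2 and 480.5 CPM in EHT against 313.7, 270.5 and 287.2 CPM in HE (0.66 ± 0.17, edgeR adjusted p = 0.336). Ndufa1 had the lowest ratio among the more abundant members, at -0.76, followed by Ndufv1 at -0.34 and Uqcrfs1 at -0.32.

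For IAHC against HE, edgeR's quasi-likelihood test called 0 members where 0.728% of genes were called (0.0646% higher, 0.663% lower). With an unadjusted p under 0.05 were 25 members (31.2%) and 14% of all genes. DESeq2 called 13 members of 80, all higher, beside 745 genes higher and 1630 lower of 17041. Of the 80 members, 71 lay above 0, with a median of 0.44 against -0.04 for all genes. The medians were 0.62 in complex IV (11 of 11 above 0), 0.51 in complex V (15 of 15), 0.50 in complex III (7 of 8), 0.35 in complex I (30 of 35) and 0.23 in complex II (3 of 4). These values lean on the scaling: the E11.5 IAHC sum, rich in globin, had a factor of 0.523, and with library totals in place of such factors the median member stood at 0.09 and the median gene at -0.38. Without the E11.5 IAHC sum the median member was 0.35, and without erythroid-like cells 0.26.

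Cox7b had 664.0 and 292.7 CPM in IAHC of E10.5 and E11.5, against 313.7, 270.5 and 287.2 CPM in HE of the E10.5, titled E11.5 and E11.5 sets. In CPM the E11.5 IAHC sum lay within the HE values. The fitted log2 ratio was 0.93 ± 0.17 (edgeR adjusted p = 0.0765), and with 1 set left out at a time it lay between 0.87 and 0.98. Ndufv3, a small flavoprotein subunit of complex I, had 244.9 and 107.3 CPM in IAHC against 111.9, 127.4 and 97.3 CPM in HE (1.0 ± 0.19, edgeR adjusted p = 0.0765), again with the E11.5 sum inside the HE range. Atp5j2 and Atp5g1, of the membrane part of the ATP synthase, had log2 ratios of 0.87 and 0.85 (edgeR adjusted p = 0.189 and 0.169). The lowest ratios were those of Ndufv1 (-0.34), Ndufa10 (-0.24) and Atp5sl (-0.20). For IAHC against EHT, edgeR's quasi-likelihood test called 0 members and 0% of genes, with 2 members and 3.09% of genes under an unadjusted p of 0.05 and 0 by DESeq2. The median member lay at 0.23, with 75 of 80 above 0, and at 0.04 without erythroid-like cells. With library totals in place of scaling factors the direction turned, to a median of -0.23 with 11 above 0 and 69 below, where the median gene stood at -0.46.

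Within the E10.5 set alone, with 1 sum a gate and no test, 32 of 78 measured members were over 1.5-fold higher in IAHC than in HE and 1 lower, where 29.4% of genes were higher and 21.5% lower. For EHT against HE the counts were 20 and 2 of 78, beside 26.5% and 15.5% of genes, and for IAHC against EHT 0 and 0 of 78, beside 9.36% and 16.3%. All EHT and IAHC cells of this set lie in the first cell number range, and within that range the counts were 12 and 1 for IAHC and 6 and 2 for EHT. Both upward counts were smaller within the range than with all HE cells. No share of all genes is given for the range, so whether this is particular to members cannot be said. The titled E11.5 set had 14 of 78 members higher and 1 lower in EHT than in HE (27.9% and 22.1% of genes). In that EHT sum all 8 macrophage markers stood at 10 CPM or more, with a sum of 827.6 CPM against 49.4 CPM in HE of the set, and their part was not tested. At E11.5, 2 of 77 were higher and 37 lower in IAHC than in HE, where 9.42% and 70.6% of genes were.

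Isoform pairs separated the sorts more sharply than the common subunits. Cox4i2, the second form of subunit 4 of complex IV, known from lung and from the response to low oxygen, lay in EHT and IAHC and was nearly absent from Endo. Along the E10.5 Gfi1/Gfi1b sorts it had 0.572 CPM in Endo, 1.98 CPM in HE and 40 CPM in EHT, and it reached 53.2 CPM in IAHC. A read was found in 1 of 74 Endo cells, 9 of 95 HE cells, 26 of 41 EHT cells (63.4%, exact Clopper-Pearson 95% interval 46.9% to 77.9%) and 34 of 42 IAHC cells (81%, 65.9% to 91.4%). These intervals count cells, leave out any spread between embryos or sorts, and describe these sums alone. At 100000 reads a cell the EHT and IAHC shares were 61% and 81%, much as at full depth. The titled E11.5 EHT cells had 21.5 CPM with 20 of 42 cells positive, against 2.16 CPM in HE and 1.15 CPM in Endo of that set. In the E11.5 set the gene did not follow this order, with 3.34 CPM in IAHC (2 of 22 cells), 5.03 CPM in HE (3 of 40) and no read in 16 Endo cells. A count of 16 cells is too small to show that the gene was absent. The fit over sets gave log2 ratios of 2.18 ± 2.04 for EHT and 2.47 ± 1.73 for IAHC over HE, errors near the size of the ratio, with 0 settings past the threshold. For IAHC the ratio ran between 1.36 and 4.53 with a set left out. Per kilobase, Cox4i2 made up 9.67% of the Cox4i1 and Cox4i2 sum in E10.5 IAHC, 7.77% in EHT and 0.121% in Endo. No erythroid-like cell of any group had a Cox4i2 read. Cox4i1 varied far less between the same sorts, with 925.8, 684.3, 934.7 and 977.4 CPM in Endo, HE, EHT and IAHC.

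Outside the Gfi1/Gfi1b sorts Cox4i2 was found in the ACE+ cells of the ACE sorts and in the RUNX1b+ cells. In the ACE sorts 28.2% of ACE+ GFI1+ HE cells and 12.1% of ACE+ GFI1- cells had a read. No ACE- GFI1- Endo cell had one. In the Runx1b line Cox4i2 had 4.86 CPM in titled KO HE (read in 15.9% of cells), 16.2 CPM in het HE (32.4%) and 0.542 CPM in Endo. Its level was 9.31 CPM in KO Mes (27.5%) against 23.4 CPM in het Mes (35.5%). Of the het HE cells, 50% had under 10 of the 20 pan-endothelial genes, and these held 87.2% of the Cox4i2 reads, at 26.5 CPM against 4.44 CPM in the other cells. Ndufa4l2, a relative of Ndufa4 known to be induced by low oxygen and marked in pericytes, was more restricted still. It had 19.5 CPM in Runx1b het HE, with reads in 58.8% of the cells poor in endothelial genes (36.1 CPM) and in 1.53% of the others (0.491 CPM). Ndufa4l2 had 12.9 CPM in KO Mes and 13.2 CPM in het Mes, against 0.67 CPM in titled KO HE. No Ndufa4l2 read was found in the E10.5 Endo, HE, EHT and IAHC sums of the Gfi1/Gfi1b het line. In the same Runx1b het HE sum 10 of 13 mesenchymal and 9 of 10 pericyte or smooth muscle markers were at 10 CPM or more, none of them at 0. These lists summed to 107.5 and 505.2 CPM in titled KO HE, against 4999 and 7190 CPM in het HE, and the part of such cells in these isoform values was not tested.

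Cox6b2, the second form of a subunit of complex IV known from testis, tracked erythroid-like cells. In E10.5 HE of the Gfi1/Gfi1b line it had 157.8 CPM in the 16 erythroid-like cells, all with a read, and 9.24 CPM in the other cells. In Runx1b het HE the values were 186.6 CPM (31 of 31 cells) and 10.2 CPM, in het Mes 119.8 CPM (10 of 10) and 14.8 CPM, and in E11.5 IAHC 173.9 CPM (13 of 14) and 60.7 CPM. The group values of Cox6b2, 45.3 CPM in E10.5 HE against 4.23 CPM in Endo among them, moved with the number of such cells, but not in every group. HE labelled Gfi1/Gfi1b knockout, with 4 erythroid-like cells of 42, had 8.74 CPM, below the 9.24 CPM of the other het HE cells. Another exception was the titled E11.5 EHT sum, with no erythroid-like cell, 59.9 CPM and reads in 37 of 42 cells, against 9.92 CPM in HE of that set. This is the EHT sum with all 8 macrophage markers. Of the other second isoforms, Cox7a1 reached at most 2.57 CPM in a group, Cox7b2 0.747 CPM and Cox8b 0.507 CPM. Among the 3 genes that encode the same mature c subunit of the ATP synthase ring, Atp5g1 had 231.1 CPM in E10.5 Endo, 188.1 in HE, 379.1 in EHT and 471.8 in IAHC. Atp5g3 had 462.1, 280.6, 408.5 and 446.8 CPM in the same order, so Endo was high for one and low for the other. Atp5g2 followed the cell number ranges in part, and 38.3% of its 50-base words occur in other annotated genes, so its values are uncertain.

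**Figure D4:**
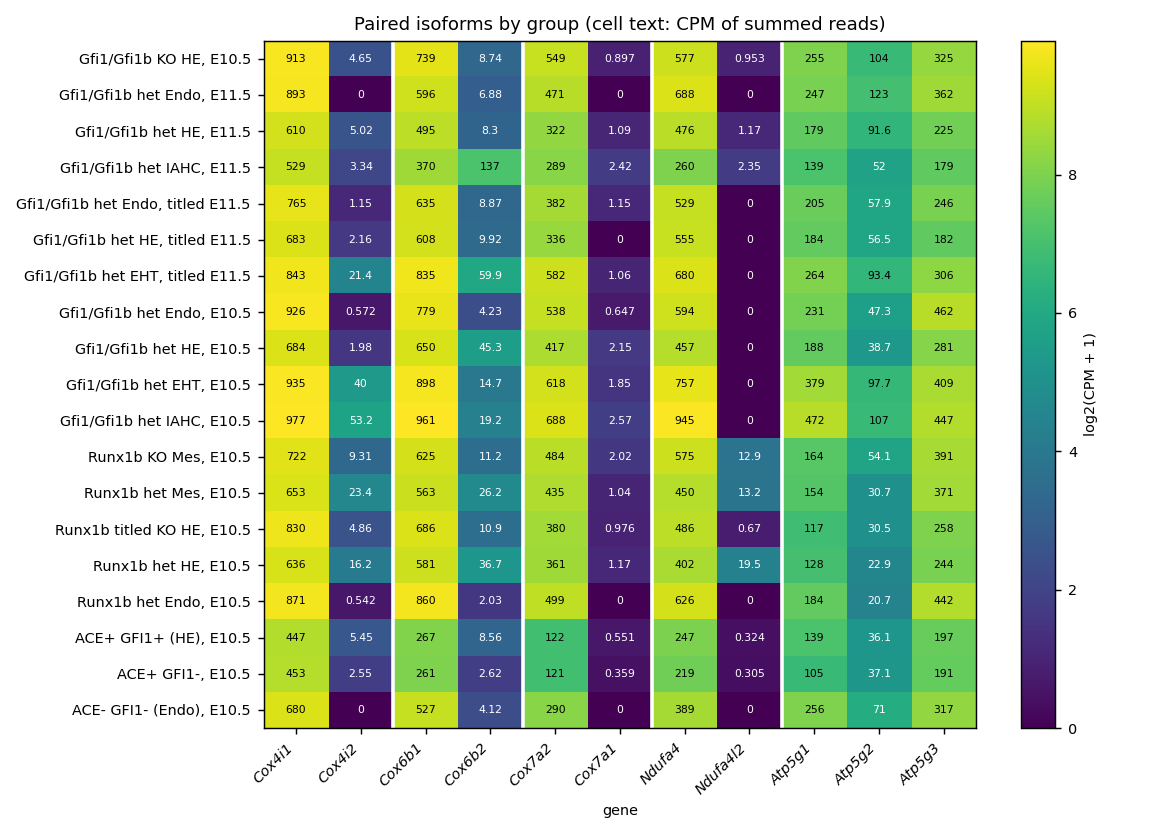
Heat map of CPM, coloured as log2(CPM + 1), for isoform pairs of complexes IV and V and for Ndufa4 and Ndufa4l2, with genes in columns, groups in rows and the CPM written in each cell. Cox4i2 reaches 40 and 53.2 CPM in E10.5 EHT and IAHC and Cox6b2 137.4 CPM in E11.5 IAHC.

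The genotype comparisons had 1 sum a group, so they carry no test, and a member counted as different when it passed 1.5-fold. Reads of the replaced genes give no clear check of the labels. Gfi1 had 218.9 CPM in HE labelled knockout against 55.2 CPM in het HE, and the counts do not say which part of the locus the reads come from. Runx1 had 1.47 CPM in titled KO HE against 17.8 CPM in het HE, and 20.1 CPM in KO Mes against 35.3 CPM in het Mes. In E10.5 HE labelled Gfi1/Gfi1b knockout, members took 2.29% of reads in those cells against 2.02% in het cells, and the mt- share was 2.44% against 2.43%. Of 77 measured members, 5 were higher and 2 lower in HE labelled knockout, where 17.7% and 13.8% of genes were, and the median log2 ratio was 0.18 against 0.07 for all genes. Atp5c1, the gamma subunit of the ATP synthase, had 744.8 CPM in HE labelled knockout against 471.8 CPM in het HE, and Cox7c, of complex IV, 214.7 against 126.7 CPM. All labelled knockout cells lie in the first cell number range. Against the het cells of that range, 1 of 76 members was higher and 4 lower, with a median of -0.08, and Cox7c had a log2 ratio of -0.05. The higher counts in HE labelled knockout were not present within the range, for which no share of all genes is given. Cox6b2 had 8.74 CPM in HE labelled knockout against 45.3 CPM in het HE, groups with 4 and 16 erythroid-like cells.

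In the Runx1b line, members took 1.90% of reads in titled KO HE against 1.81% in het HE. Over 1.5-fold, 2 of 78 members were higher and 4 lower in titled KO HE, where 17.8% and 11.4% of genes were, with a median log2 ratio of -0.01 against 0.11 for all genes. Within the first range 0 of 77 were higher and 4 lower, and within the second 3 and 4 of 78. Cox5a had 86.8 CPM in titled KO HE against 57.8 CPM in het HE, with a log2 ratio of 0.04 within the first range and 0.63 within the second, and Atp5sl 48.3 against 28.2 CPM (0.57 and 0.86). The erythroid list summed to 8051 CPM in titled KO HE against 89650 CPM in het HE, and the pan-endothelial list to 21280 against 8866 CPM. In KO Mes, members took 2.06% against 1.97% in het Mes. There 2 of 79 members were higher and 4 lower, beside 14.7% and 10.9% of genes, with 3 and 5 of 79 within the first range and 2 and 2 of 78 within the second. Ndufa8 had 97.04 CPM in KO Mes against 152.6 CPM in het Mes, with log2 ratios of -1.01 and -0.37 within the ranges, and Ndufb3 of complex I 148.6 against 89.3 CPM. Other cell types differed between these sums: erythroid genes summed to 6329 CPM in KO Mes against 64340 CPM in het Mes, pan-endothelial genes to 3006 against 741.3 CPM, and macrophage genes to 3.71 CPM against 498.6 CPM, with 0 of 8 macrophage markers at 10 CPM in KO Mes against 8 of 8 in het Mes. The part of such cells in the genotype values was not tested. In all 3 genotype comparisons the share of members past 1.5-fold lay below that of all genes.

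The ACE sorts split the endothelium by a surface marker. ACE+ GFI1- cells had 1.45% of reads in members against 2.32% in ACE- GFI1- cells, and 0 of 76 members were over 1.5-fold higher and 47 lower, where 28% of genes were higher and 24.6% lower. The median log2 ratio was -0.65 against -0.00 for all genes, with medians of -0.97 in complex IV, -0.83 in complex III, -0.64 in complex V, -0.59 in complex II and -0.47 in complex I. Cox6b1 had 260.7 CPM in ACE+ GFI1- cells against 526.9 CPM in ACE- GFI1- cells, and Cox7a2 120.9 against 289.6 CPM. Ndufa5 of complex I had 49.1 against 122.7 CPM, Atp5k of the ATP synthase 44.3 against 111.2 CPM, and Ndufa8 138.4 against 346.4 CPM. The mt- share ran the other way, at 3.83% in ACE+ GFI1- cells against 1.96% in ACE- GFI1- cells. Per cell its median was 2.26% against 1.62%, and single cells reached 98.5% and 93.3%, so the pooled mt- values lean on few cells. ACE- GFI1- holds 14 cells and stands for 1 sum. Proliferation genes lay lower in ACE+ GFI1- cells as well, 10 of 10 past 1.5-fold, and their part was not tested. Within ACE+ cells, GFI1+ HE differed little from GFI1- cells, with 1.59% against 1.45% of reads, 2 of 74 members past 1.5-fold, both higher (21.6% of genes in either direction), and a median of 0.09. The protein genes of mitochondrial DNA had a median of -0.91 in that comparison.

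Between E11.5 and E10.5, in cells whose title and field give the same stage, the members took a lower share at E11.5 in each of the 3 sorts. In Endo, they took 2.28% at E11.5 against 2.49% at E10.5, with 3 of 76 over 1.5-fold higher and 6 lower (20.5% and 24.4% of genes), and 3 and 7 within the first range. Uqcrc1 had 455.9 CPM at E11.5 against 733.1 CPM at E10.5, and Uqcrq, also of complex III, 288.4 against 462.4 CPM. In HE, they took 1.78% against 2.02%, with 3 of 77 higher and 6 lower (33.7% and 16.5% of genes) and a median of -0.18 against 0.26 for all genes. E11.5 HE cells lie in the first cell number range, and against E10.5 HE of that range 1 of 75 members was higher and 23 lower, with a median of -0.34. The shares of all genes above are those of all cells, and none is given for that range. Uqcrq had 221.7 CPM in E11.5 HE against 356.8 CPM in E10.5 HE, and Atp5k 116.7 against 205.5 CPM. The mt- share went the other way, at 4.67% in E11.5 HE against 2.43% in E10.5 HE. Within the first range its median over cells was 4.67% against 2.84%. Read depth differed along with stage. Endo, HE and IAHC cells had medians of 2777264, 2173456 and 3977381 reads at E11.5, against 508629, 711109 and 546101 at E10.5. Stage and this difference in depth cannot be told apart in these sorts. In IAHC, members took 1.29% at E11.5 against 2.96% at E10.5, with 1 of 78 higher and 69 lower, but 69.6% of all genes were lower and 9.88% higher, and the median gene lay at -1.12 beside -1.26 for members. With the 8 cells left after removal of erythroid-like cells, 4 were higher and 36 lower, with a median of -0.51 where that of all genes was 0.09. Sdhc, a membrane subunit of complex II, had 58.6 CPM in the E11.5 IAHC sum against 231.3 CPM at E10.5.

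The titled E11.5 cells gave the same sign. Members over 1.5-fold higher and lower numbered 2 and 11 in titled E11.5 Endo against E10.5 Endo (23.6% and 19.4% of genes), 2 and 4 in HE (31.2% and 16.3%) and 1 and 7 in EHT (22.6% and 13.5%). The medians were -0.25, -0.11 and -0.21, against 0.02, 0.23 and 0.08 for all genes. Within the first range, Endo had 2 members higher and 7 lower, and HE 1 higher and 17 lower, with a median of -0.33 in HE. These cells have conflicting stage labels, so their stage cannot be read from the labels.

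RUNX1b+ mesenchymal cells had slightly more reads in members than HE of the same line, 1.97% in Mes against 1.81% in HE, and 3.79% against 2.81% in mt- genes. Within the first cell number range the mt- share was the lower one in Mes, at 4.53% against 5.31% in HE, and within the second the higher one, at 3.31% against 2.20%. Of 79 members, 5 were over 1.5-fold higher and 0 lower in Mes, where 19.3% and 14.5% of genes were, with a median of 0.16 against 0.13 for all genes. Atp5g3 had 371.2 CPM in Mes against 244.04 CPM in HE, Ndufc1 138.5 against 88.3 CPM and Cox7c 124.9 against 77.9 CPM. Within the first cell number range 9 of 78 were higher and 3 lower, and within the second 4 and 1. In the Runx1b het HE sum, cells with under 10 pan-endothelial genes made up 50%, and the 20 pan-endothelial genes summed to 741.3 CPM in Mes against 8866 CPM in HE.

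**Figure D5:**
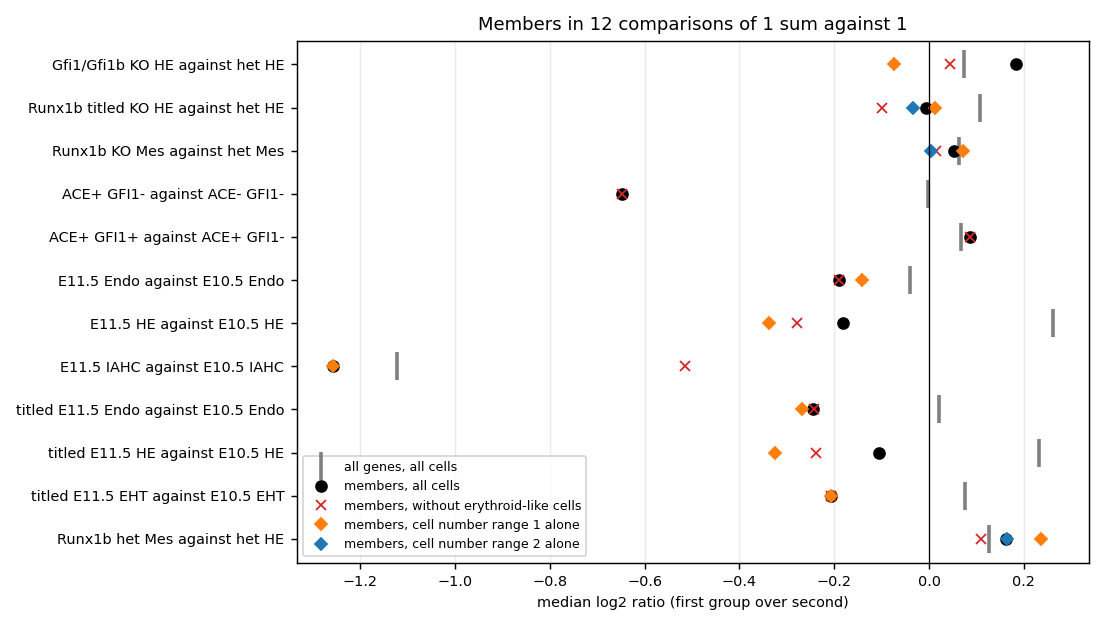
Median log2 ratio of the members in the 12 comparisons of 1 sum against 1 (black), without erythroid-like cells (red crosses) and within the first and second cell number range (orange and blue), with the median of all genes as a grey bar. The ACE+ GFI1- comparison lies at -0.65 with all genes near 0, and the E11.5 IAHC comparison at -1.26 with all genes at -1.12.

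Other mitochondrial lists were read beside the members. In HE against Endo, edgeR's quasi-likelihood test called 0 genes in each of them, so the counts in brackets are those at an unadjusted p under 0.05 and those by DESeq2. Of all 14553 genes, 19.4% had an unadjusted p under 0.05 by edgeR, and DESeq2 called 1542 higher and 1042 lower. Of the 15 tricarboxylic acid cycle genes, 14 lay below 0 with a median of -0.35 (6 with an unadjusted p under 0.05, 4 called by DESeq2). The mitochondrial ribosome had 65 of 76 below 0, with a median of -0.24 (15 at unadjusted p under 0.05, 9 by DESeq2). Inner membrane transport had 9 of 11 below 0 (median -0.29, 4 at unadjusted p under 0.05, by DESeq2 3 lower and 2 higher), and electron carriers 10 of 14 (-0.19, 3 and 3). Assembly factors of the chain were evenly spread, 22 of 42 below 0 with a median of -0.10 (2 and 1), and genes of mitochondrial gene expression and biogenesis had a median of 0.01 (1 and 1). Proliferation genes had 4 of 10 at an unadjusted p under 0.05 and 4 called by DESeq2. In IAHC against HE, edgeR again called 0 genes in every list, with medians of 0.26 for the mitochondrial ribosome (10 at unadjusted p under 0.05, by DESeq2 6 higher and 1 lower), 0.38 for assembly factors (3 and 0) and 0.12 for the tricarboxylic acid cycle (2 and 1).

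Of the 13 protein genes of mitochondrial DNA, 8 lay above 0 and 5 below in HE against Endo, with a median of 0.19, although their summed share lay lower. Of the 8, 6 (mt-Co2, mt-Co3, mt-Atp6, mt-Atp8, mt-Nd3 and mt-Nd4l) had standard errors of 0.98 to 1.18 and at most 65.5 CPM in any group. All 6 follow the cell number range, over 2-fold higher in the first range in each of the 6 groups with cells of both. Of the other 7, 5 lay below 0. mt-Nd1, a core subunit of complex I, had 3312, 6360, 3501 and 1599 CPM in HE against 4684, 8120, 6210 and 2463 CPM in Endo, lower in HE in each set, with a log2 ratio of -0.50 ± 0.14 (edgeR adjusted p = 0.141). mt-Co1, the catalytic core of complex IV, had 5006, 10770, 5860 and 4545 CPM in HE against 6361, 10210, 7023 and 4791 CPM in Endo and a log2 ratio of -0.07, and mt-Cytb one of -0.08. edgeR called 0 of the 13, with 1 at an unadjusted p under 0.05 and 1 by DESeq2. In IAHC against HE, all 13 lay above 0, with a median of 0.52 (0 called by edgeR, 0 at an unadjusted p under 0.05, 0 by DESeq2), and in EHT against HE 10 of 13, with a median of 0.25 (0, 0 and 0). For IAHC the 6 genes with few reads lay between 0.62 and 1.19, and the other 7 between 0.02 and 0.52. All IAHC and EHT cells lie in the first cell number range, while E10.5 HE holds both, so these medians lean on genes that follow the range. Many mitochondrial genes share their sequence with nuclear copies: all 50-base words of mt-Co2 and 99.9% of those of mt-Co3 occur in other annotated genes, and these genes had at most 45 and 65.5 CPM. mt-Nd1 shares none. How reads that match several places were counted is not given in the sources used here.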

How the data were processed

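Each GEO sample was 1 cell. The authors deposited raw read counts per gene and cell, in 1 table of 1288 cells and 1 of the ACE sorts. Per the labels' protocols, cells were sorted into 384-well plates and amplified by a modified Smart-seq2 method. Per the submitters' processing notes, bcl2fastq, STAR 2.4.2a, HTSeq 0.6.1p1, R 3.6.2 and GRCm38 were used; the sources used here do not give the annotation release, the strand setting or the handling of reads with several matches. Reads carry no molecular identifiers, so intervals cover counting error only.

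The copy of the larger table ends within a row, so the genes present in full in each table, 36131, were kept; 13454 further genes listed for the ACE sorts (10.1% of those reads) were not analysed here. Cells of a group were added up, with no cell left out and no doublet caller run, and each sum counted as 1 sample. The 13 misspelt titles of Runx1b endothelium stayed in their group. CPM are reads per 1000000 of the sum, and levels between genes were set per kilobase of exon. Counts were tested with edgeR 4.0.16 in R 4.3.3 (filterByExpr, TMM scaling, sort set as a block, quasi-likelihood test, Benjamini-Hochberg adjustment, threshold 0.05), HE against Endo on 8 sums with 3 residual degrees of freedom and the gates of the Gfi1/Gfi1b line on 10 sums with 4. DESeq2 1.42.0, thinning to 100000 reads, other filters and scalings and leaving out sets were alternatives, and the scripts were tested on simulated data. Comparisons of 1 sum against 1 took members with 10 CPM in the higher group and a floor of 3 reads, and have no p. In the HE and Endo fit, sums of 1 set deviated together from their gate means (r between 0.16 and 0.486, against -0.312 to 0.12 between sets). In the gates fit this did not hold for every set. There r was 0.127 to 0.37 within the E10.5 set, 0.183 to 0.3 within the titled E11.5 set and -0.114 to 0.126 within the E11.5 set. Between sets it was -0.37 to 0.301. The pairing comes from the line and stage that the labels give. Other tools were Python 3.11.15, numpy 2.4.6, pandas 2.3.3, scipy 1.17.1 and matplotlib 3.10.9. Gene positions are of GRCm38.

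Named genes were the isoform pairs, 1 gene a complex (Ndufv1, Sdhb, Uqcrc1, Cox4i1, Atp5b), members past the threshold, up to 6 a direction with the largest ratios and 20 CPM in the higher gate, and, for 1 sum against 1, up to 4 a direction past 1.5-fold with reads in 25% of cells. Genes named for the highest or lowest level, and Cox6b1 and Cox7a2 in the ACE sorts, were chosen after their values were seen. The members and lists were chosen with earlier results of these data known. Cell number ranges and the short NRF1 form were examined after the data were seen. The values of 1 member that this rule names are not reported here, and it is not drawn in the figures.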

Additional observations from a re-analysis of the deposited data

Results flagged for a closer look

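Among 70 series of 4 sums tested for a sum far from the others, 0 passed Dixon's critical value of 0.829, where chance passes about 1 in 20. In 4 contrasts the 2 stages or sorts moved in opposite directions, and none of these differences was tested, since each rests on 1 sum a group. Members took 2.96% of reads in IAHC against 2.02% in HE at E10.5, but 1.29% in IAHC against 1.78% in HE at E11.5. The mt- share was 3.36% in IAHC against 2.43% in HE at E10.5, and 2.15% in IAHC against 4.67% in HE at E11.5. In 14 of the 22 cells of the E11.5 IAHC sum globin genes took at least 1% of reads, and without them members took 2.02% and mt- genes 5.19%; their part was not tested. For HE against Endo, the mt- share was 2.43% in HE against 3.25% in Endo at E10.5, and 4.67% against 4.54% at E11.5. Between stages, HE had 4.67% at E11.5 against 2.43% at E10.5, while IAHC had 2.15% at E11.5 against 3.36% at E10.5.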

How the results depend on the processing

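Ndufa8, the 1 member called, lay lower in HE in all 19 settings. Some values without a call turned: the member median of IAHC against EHT was -0.23 with library totals (0.23 otherwise), that of HE labelled knockout -0.08 within the first range, and E11.5 IAHC without erythroid-like cells took 2.02% in members against 1.79% in HE, and 5.19% in mt- genes against 4.68%. Of the recomputed main counts, 39 moved by over 1.5 times. For HE against Endo, where edgeR called 1 member, DESeq2 called 22 of 79, 3 higher and 19 lower. Of all 14553 genes DESeq2 called 1542 higher and 1042 lower. Cells thinned to 100000 reads gave 3 members, cells with at least 10 of 20 pan-endothelial genes gave 4, and sets left out 1 at a time gave 0 to 0. Sets split by cell number range gave 1, but 2 without erythroid-like cells and 7 with cells of at least 10 pan-endothelial genes; these splits were chosen after seeing the data. The fit with no replicate block (no pairing by set) also called 1 member there and 0 in the other 3 comparisons. DESeq2 called 2 members for EHT and 13 for IAHC against HE, thinning gave 2 for IAHC, and adding the Runx1b and ACE sets 3. Wherever a setting called more members than the main fit, it also called more of all genes, both higher and lower. These larger member counts alone therefore do not single out members. With 2-fold in place of 1.5-fold, the members past it numbered 3 each in both KO HE comparisons, in KO Mes and in E11.5 Endo, 14 in ACE+ GFI1- cells, 1 in ACE+ GFI1+ HE, 4 in E11.5 HE, 1 each in titled E11.5 Endo and EHT, 2 in titled E11.5 HE and 1 in Mes. Thinning gave 5 in ACE+ GFI1+ HE and 12 in titled E11.5 HE. In E11.5 HE the count was 16 without erythroid-like cells or with at least 10 pan-endothelial genes, and 24 within the first range, with or without erythroid-like cells. In E11.5 IAHC it was 40 without erythroid-like cells (also within the first range) and 36 with at least 10 pan-endothelial genes. Within the first range it was 18 in titled E11.5 HE, with or without erythroid-like cells, 4 in HE labelled knockout without them, and 12 in Mes, or 21 without them; Mes in all cells gave 2 without them. The shares of all genes past the same fold in these settings are not given here. The cause was not tested. Each group is 1 sum, so counting error is small, and the number of sets limits what can be called.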

Other observations

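The genes whose level followed the summed members most closely over the 19 groups, among 3694 genes searched, were Chchd1 of the mitochondrial ribosome (Pearson r = 0.959), the thioredoxin gene Txn1 (0.956), Cks1b of the cell cycle (0.946), Rbm8a of the exon junction complex (0.943) and Exosc8 of the RNA exosome (0.938). The labels do not say which sums share embryos or plates, and no p was computed. Without the E11.5 IAHC sum they were 0.945, 0.966, 0.923, 0.935 and 0.913. The summed mt- level had r = 0.24 with the members, and the 71 members at 20 CPM in every group had a median r of 0.76 with their own sum. Next to Ndufa8, the start of Morn5 on the other strand lies 52 bases from the annotated Ndufa8 start at 36049406, which is not the RefSeq start of the printed promoter. A further neighbour, Lhx6 at chr2:36081953-36105408 on the minus strand, a homeobox gene, had 0, 0.0116, 0 and 0.681 CPM in HE against 80.9, 14.1, 33.8 and 46.9 CPM in Endo, in the order of the E10.5 Gfi1/Gfi1b, E11.5, Runx1b and ACE sets. It was lower in HE in each set, with an adjusted p of 0.0596 by edgeR's quasi-likelihood test. Both genes were picked for their place beside Ndufa8 after its call was seen.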
